A study of Homo sapiens with 4 samples.

Results

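The genes described here lie in band 16p13.3, at the end of the short arm of chromosome 16, which also carries THUMPD1. They are 49 genes chosen by position after genes of chromosome 16 were known to be lower in KO than in WT in this same comparison. Their KO to WT values, and the calls they received in the fit across all genes, are therefore a description and no independent test. Of the 49, 48 had an entry among the 18917 genes of the count table, and LMF1 was not analysed here. Of the 48, 42 were among the 13128 genes tested, those with at least 1 CPM (counts scaled to a common library total) in at least 2 libraries.

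RNA was sequenced from HEK-293T cells, a line derived from human embryonic kidney and labelled HEK293, in 2 WT libraries and 2 THUMPD1 KO libraries. THUMPD1 is the adaptor protein needed for acetylation of cytidine in tRNA. All cells were grown in DMEM with 10% serum and 2 mM glutamine. KO cells had been made with CRISPR-Cas9 and a pair of guides, followed by single-cell sorting, so the genotype and the history of the sorted cells cannot be told apart. Nothing in the labels says that the 2 libraries of a genotype came from separate cultures, and their spread may be technical. Total counts ran from 7875722 to 11362363 per library. THUMPD1 had 356 and 468 counts in WT and 71 and 58 in KO, a log2 fold change of -2.93 (SE 0.17, adjusted p = 1.27e-12 by edgeR with Benjamini-Hochberg adjustment), which follows the labels. Of 10 markers of the HEK line, 9 reached 1 CPM in every library, and LHX1 did so in KO libraries only. Among those 9, NEFM stood at 185 and 177 CPM in WT and at 26.3 and 23.0 CPM in KO, and its part in the results was not tested. Among the 7 markers of other cell types that had an entry, only COL1A1 reached 1 CPM, at 18.5 to 25.3 CPM.

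The end of 16p is densely packed with short genes that most cells use. Its proteins serve very different tasks, among them control of the kinase mTORC1 by nutrients (NPRL3, WDR24), degradation of β-catenin (AXIN1), chaperone-linked ubiquitination (STUB1), base excision repair (MPG, NTHL1), assembly of cytosolic iron-sulfur proteins (NUBP2, NARFL), lysosomal chloride transport (CLCN7) and transport within cilia (IFT140). The genes share a position rather than a pathway, and many of them start in CpG-rich promoters of the housekeeping kind.

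Promoters from RefSeq (250 bases before to 50 after the gene start, GRCh38.p14) were matched for 38 of the 48 genes. Of these, 4 are shown because their genes mark the span of the values below. NME4 had the highest level, AXIN1 and NTHL1 were among the 5 genes with the lowest KO to WT ratio, and E4F1 was among the 5 with the highest. Each is written 5′ to 3′ on the strand of its gene, at chr16:352674-352973 for AXIN1 (minus strand), chr16:2047785-2048084 for NTHL1 (minus strand), chr16:396949-397248 for NME4 (plus strand) and chr16:2223341-2223640 for E4F1 (plus strand). Capitals mark GC boxes (GGGCGG, or CCGCCC on the other strand) and an ETS motif (CCGGAAG, or CTTCCGG).
AXIN1: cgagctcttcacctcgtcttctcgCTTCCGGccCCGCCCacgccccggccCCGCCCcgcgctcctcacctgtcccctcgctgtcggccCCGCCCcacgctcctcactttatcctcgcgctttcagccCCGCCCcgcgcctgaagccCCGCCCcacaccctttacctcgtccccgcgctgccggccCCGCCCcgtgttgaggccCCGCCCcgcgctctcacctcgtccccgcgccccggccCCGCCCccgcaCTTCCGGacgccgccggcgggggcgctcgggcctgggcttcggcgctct
NTHL1: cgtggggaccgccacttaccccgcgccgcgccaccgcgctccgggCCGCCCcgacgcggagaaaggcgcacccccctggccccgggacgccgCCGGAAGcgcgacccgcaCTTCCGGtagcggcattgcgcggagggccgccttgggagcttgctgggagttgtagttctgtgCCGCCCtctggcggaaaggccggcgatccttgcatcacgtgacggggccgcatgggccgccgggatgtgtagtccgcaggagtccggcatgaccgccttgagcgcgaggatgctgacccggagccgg
NME4: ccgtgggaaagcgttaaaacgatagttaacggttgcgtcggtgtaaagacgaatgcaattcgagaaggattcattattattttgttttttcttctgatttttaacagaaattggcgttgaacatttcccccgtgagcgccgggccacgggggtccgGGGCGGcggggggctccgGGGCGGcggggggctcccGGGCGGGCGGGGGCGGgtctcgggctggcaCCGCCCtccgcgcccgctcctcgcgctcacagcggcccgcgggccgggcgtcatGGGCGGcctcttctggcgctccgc
E4F1: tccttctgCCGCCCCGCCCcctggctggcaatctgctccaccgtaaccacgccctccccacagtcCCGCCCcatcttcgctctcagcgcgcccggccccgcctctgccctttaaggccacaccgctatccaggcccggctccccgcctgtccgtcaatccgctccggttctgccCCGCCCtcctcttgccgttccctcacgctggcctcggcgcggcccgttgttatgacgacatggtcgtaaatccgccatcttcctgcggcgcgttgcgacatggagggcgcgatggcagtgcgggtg

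The AXIN1 window held 8 GC boxes and 2 ETS motifs, that of NTHL1 2 of each, and those of NME4 and E4F1 7 and 4 GC boxes with no ETS motif. Counted on both strands, a GC box was present in 35 of the 38 promoters (92.1%), against 45.0% of all 35116 promoters of the same length. That set is larger than the 18917 genes of the count table, so it was not limited to genes tested here. The ETS motif was found in 9 of 38 (23.7% against 10.3% of all), the CCAAT letters in 34.2% against 34.6%, and the TATAAA letters in 0 of 38 against 11.5%. UNKL, whose log2 fold change was -1.15, had no ETS motif. Besides AXIN1 and NTHL1, the motif was found for RHBDF1 (-0.42), PKD1 (-0.44), TRAF7 (-0.65), GNPTG (-0.67), RHOT2 (-0.69), JMJD8 (-0.81) and FAM173A (-0.95). A relation between motifs and fold changes was not tested. A match is a description of letters and not of a bound factor. The median GC content of the 38 promoters was 72.8% (56.3% to 84.3%) and their median number of CpG was 38.5, against 58.7% and 14 over all promoters. The transcripts were GC-rich as well, with a median of 63.8% for the 42 tested against 48.4% over all genes tested. Sequence composition was therefore not evenly matched with the rest of the table, and values corrected for a GC and length trend are given below.

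In each library the 48 genes together took 0.211% of the counts in WT replicate 1 (95% Wilson interval 0.208% to 0.214%), 0.219% in WT replicate 2 (0.216% to 0.222%), 0.139% in KO replicate 1 (0.137% to 0.142%) and 0.137% in KO replicate 2 (0.135% to 0.139%). These shares do not depend on a scaling between libraries. Both KO shares lay below both WT shares. Each interval covers counting error only.

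All 42 tested genes had a log2 fold change (KO over WT) below 0 in the edgeR fit, with a median of -0.66, which is 63.1% of the WT level, and quartiles of -0.82 and -0.48. Of these, 32 were called lower, meaning an adjusted p under 0.05, and 0 were called higher. Over all 13128 genes tested, 12.1% were called lower and 8.79% higher. At an unadjusted p under 0.05 the edgeR counts were 35 lower and 0 higher, DESeq2 called 30 lower and 0 higher, and limma-voom 32 lower and 0 higher. Both KO libraries were below both WT libraries for 38 of the 42, where 30.0% of all genes tested showed the same. Since position on this chromosome was chosen with this comparison known, nothing is read from these counts. RNA was measured here and DNA was not, so the part of the number of gene copies was not tested. In bulk RNA, fewer cells using a gene and less RNA per cell cannot be told apart.

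**Figure D1:**
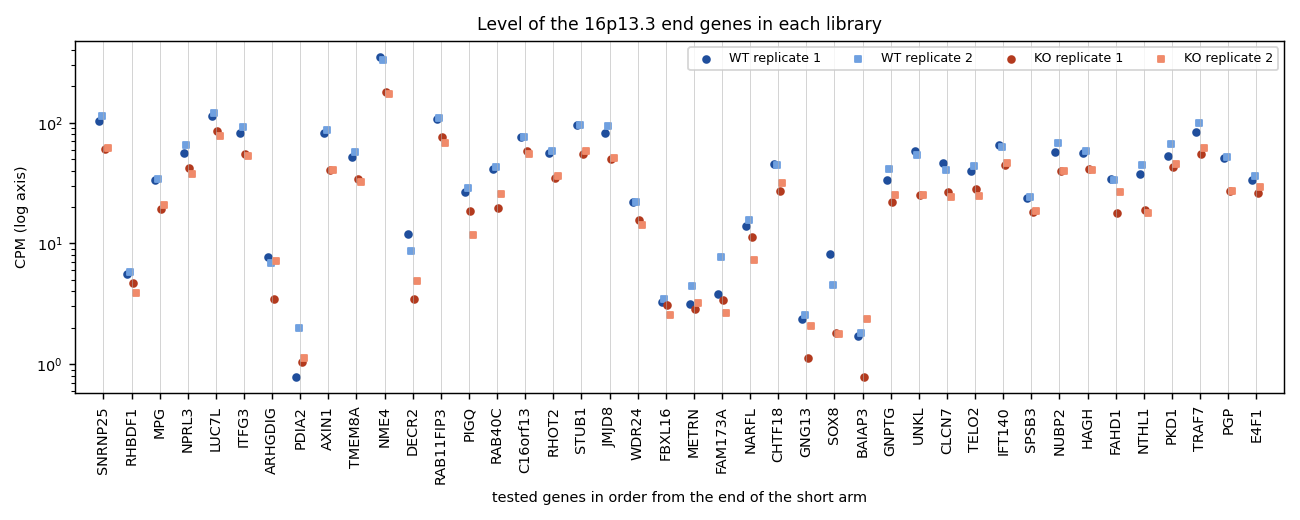
Levels of the 42 tested genes in each library, in CPM on a log axis, ordered from the end of the short arm. Blue points are the 2 WT libraries and red points the 2 KO libraries, and for 38 genes both red points lie below both blue ones.

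Genes with and without a call differed in depth. The 32 genes called lower had a median of 56.4 CPM in WT (lowest 6.38) and SEs of 0.064 to 0.42. The 10 others were RHBDF1, ARHGDIG, PDIA2, FBXL16, METRN, FAM173A, GNG13, BAIAP3, SPSB3 and E4F1, with a median of 4.75 CPM (highest 34.7) and SEs of 0.13 to 0.66. With at least 100 counts in every library, 31 genes remained, of which 29 were called lower. The shares over all genes given above include genes with fewer counts, and shares for all genes of this depth are not given here. The log2 fold changes of these 31 genes had a median of -0.67 and an SD over genes of 0.21. The median SE of a single gene was 0.11. Between -1 and -0.5 lay 22 of them, 3 were below -1 and 6 above -0.5. Each of the 31 was lower in KO in all 4 pairings of a KO with a WT library, with medians of -0.60 and -0.74 for KO replicate 1 against WT replicates 1 and 2, and -0.64 and -0.72 for KO replicate 2. Libraries of the same genotype differed far less in the median, by 0.07 for WT replicate 2 over replicate 1 (range -0.22 to 0.34) and by 0.01 for KO replicate 2 over replicate 1 (range -0.68 to 0.59). The widest of these KO differences were those of PIGQ, at -0.68, and FAHD1, at 0.59.

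After removal of the GC and length trend, the median of the 42 genes was -0.49 and 41 were below 0. The value of 14 genes moved by over 1.5 times. Of those called lower, RAB11FIP3 moved from -0.58 to -0.32, C16orf13 from -0.44 to -0.22, CHTF18 from -0.62 to -0.35, TELO2 from -0.67 to -0.42, NUBP2 from -0.66 to -0.40 and PKD1 from -0.44 to -0.22. The 8 others were not called. They were RHBDF1 (-0.24 with the trend removed), ARHGDIG (-0.25), PDIA2 (-0.24), FBXL16 (0.01), METRN (-0.10), BAIAP3 (-0.0086), SPSB3 (-0.18) and E4F1 (-0.05).

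**Figure D2:**
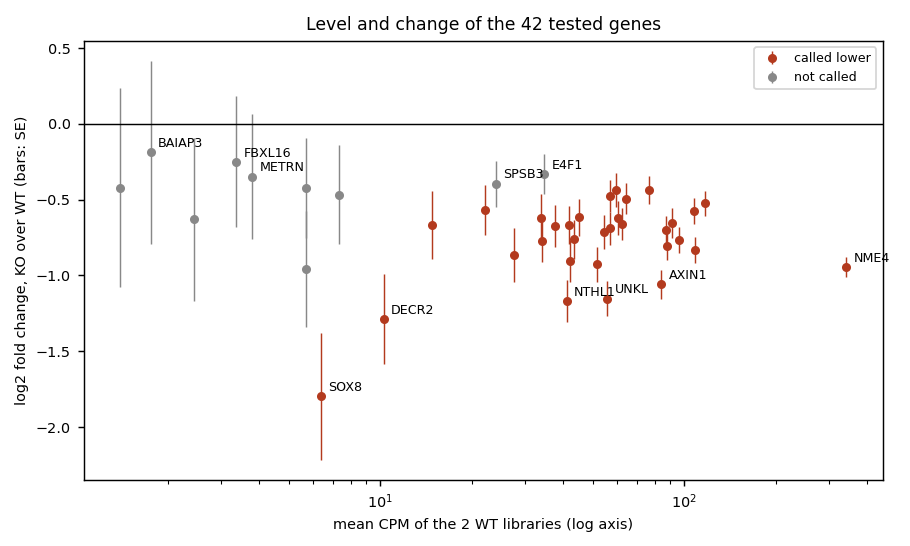
Log2 fold change of the 42 tested genes (points, with SE bars) against the mean CPM of the 2 WT libraries on a log axis. Red points are the 32 genes called lower and grey points the 10 that were not, most of which sit at the left, with a median of 4.75 CPM.

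Genes for splicing, DNA repair, replication and transcription had 6 of 7 members called lower and a median log2 fold change of -0.77. SNRNP25, a protein of the U11/U12 particle of the minor spliceosome, stood at 104 and 113 CPM in WT and at 60.6 and 61.9 CPM in KO (log2 fold change -0.83, SE 0.09). LUC7L, a splicing factor that binds the U1 particle, was the most abundant of the group by CPM, with 113 and 121 CPM in WT and 84.8 and 78.3 CPM in KO (-0.52, SE 0.08). In both genes the genotypes were clearly separated, but LUC7L kept 69.5% of its WT level and SNRNP25 56.3%. MPG and NTHL1 are DNA glycosylases, which cut damaged bases out of DNA. MPG had 33.5 and 34.4 CPM in WT and 19.2 and 20.7 CPM in KO (-0.77, SE 0.14). NTHL1, which removes oxidized pyrimidines, had 37.3 and 44.9 CPM in WT and 18.9 and 17.7 CPM in KO (-1.17, SE 0.14). NTHL1 was thus at 44.4% of WT, one of the lowest values among the well-measured genes. CHTF18, the large subunit of an alternative clamp loader for sister chromatid cohesion, had a log2 fold change of -0.62 (SE 0.12). SOX8, a transcription factor of the SOXE group, had only 63 and 50 counts in WT and 21 and 19 in KO. Its value of -1.80 (SE 0.42) was the lowest of all, and it was -1.33 and no longer called without WT replicate 1, where it had 8.22 CPM against 4.55 CPM in replicate 2. E4F1, a zinc finger regulator of the cell cycle, lay near the other end, with 33.4 and 36.0 CPM in WT and 26.1 and 29.3 CPM in KO (-0.33, SE 0.13).

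Of the genes for nutrient sensing, kinase assembly and signalling, 6 of 6 were called lower, with a median of -0.66. AXIN1, the scaffold of the complex that marks β-catenin for destruction, had 81.6 and 86.4 CPM in WT and 40.3 and 40.7 CPM in KO (-1.06, SE 0.10). UNKL, a zinc finger protein related to unkempt, had 57.9 and 54.0 CPM in WT and 25.1 and 25.1 CPM in KO (-1.15, SE 0.12). For both genes the libraries of a genotype lay close together, and KO stood at 48.1% and 45.0% of WT. TRAF7, a ubiquitin ligase of the TRAF family, had the most counts of the group, at 83.6 and 99.2 CPM in WT and 55.2 and 61.6 CPM in KO (-0.65, SE 0.10). NPRL3, a subunit of GATOR1, which turns mTORC1 off when amino acids are scarce, had 55.7 and 65.6 CPM in WT and 42 and 37.3 CPM in KO (-0.62, SE 0.11). WDR24, a subunit of GATOR2, which opposes GATOR1, had 21.9 and 22.2 CPM in WT and 15.5 and 14.2 CPM in KO (-0.57, SE 0.16). Genes for an inhibitor and an activator of the same pathway thus stood at 65.1% and 67.4% of WT. TELO2, which helps the PI3K-like kinases, mTOR among them, to fold and assemble, was at -0.67 (SE 0.13).

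Of the genes for membranes, the secretory pathway and the lysosome, 7 of 9 were tested and 6 were called lower, with a median of -0.70. RAB11FIP3, an effector of RAB11 in recycling endosomes, was the most abundant by CPM, with 107 and 109 CPM in WT and 76.0 and 68.5 CPM in KO (-0.58, SE 0.08). CLCN7, the chloride-proton exchanger of lysosomes, had 46.7 and 40.2 CPM in WT and 26.6 and 24.4 CPM in KO (-0.76, SE 0.13). GNPTG, the γ subunit of the enzyme that makes the mannose 6-phosphate tag of lysosomal enzymes, had 33.5 and 41.4 CPM in WT and 22 and 25.3 CPM in KO (-0.67, SE 0.14). The genotypes did not overlap in any of these 3 genes. PIGQ, part of the enzyme of the first step of GPI anchor synthesis, had 26.6 and 28.7 CPM in WT but 18.7 and 11.6 CPM in KO (-0.86, SE 0.18), the widest spread between KO libraries among the genes with 100 counts in every library. ITFG3 was at -0.70 (SE 0.09) and TMEM8A at -0.71 (SE 0.11). RHBDF1, an inactive rhomboid, had a log2 fold change of -0.42 (SE 0.33) and was not called. RHBDL1 had 1 to 4 counts per library and was not tested.

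Mitochondrial, iron-sulfur and metabolic genes had 9 of 10 members tested, 8 of them called lower, with a median of -0.69. NME4, a nucleoside diphosphate kinase of mitochondria, had by far the highest level. It stood at 353 and 330 CPM in WT and at 180 and 175 CPM in KO, or 341.6 ± 15.8 CPM and 177.3 ± 3.92 CPM (SD, n = 2), with a log2 fold change of -0.94 (SE 0.06). DECR2, a peroxisomal reductase in the breakdown of unsaturated fatty acids, had 11.9 and 8.64 CPM in WT and 3.46 and 4.88 CPM in KO (-1.29, SE 0.30). The annotated spans of NME4 and DECR2 overlap by 8510 bases on the same strand, so reads could be split between them and both values are uncertain. NUBP2 and NARFL act in the cytosolic assembly of iron-sulfur proteins. NUBP2 had 57.5 and 67.4 CPM in WT and 39.5 and 39.9 CPM in KO (-0.66, SE 0.11). NARFL had 14 and 15.7 CPM in WT and 11.3 and 7.32 CPM in KO (-0.67, SE 0.22). Their fold changes were alike, but that of NARFL was measured far less precisely. RHOT2, a GTPase that links mitochondria to motor proteins, was at -0.69 (SE 0.11), and PGP, a phosphatase that clears phosphoglycolate, at -0.93 (SE 0.12). HAGH, the second enzyme of the glyoxalase pathway, was at -0.47 (SE 0.11), and FAHD1, a mitochondrial oxaloacetate decarboxylase, at -0.62 (SE 0.16). FAM173A had 3.78 and 7.64 CPM in WT and 3.37 and 2.63 CPM in KO (-0.95, SE 0.38), a large but poorly measured difference that was not called. HAGHL had 7 to 10 counts per library and was not tested.

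Of the genes for protein folding and ubiquitin ligases, 3 of 6 were called lower, with a median of -0.59. STUB1, the chaperone-bound ubiquitin ligase CHIP, had 96.1 and 95.5 CPM in WT and 54.6 and 58.1 CPM in KO (-0.77, SE 0.09). JMJD8 was at -0.81 (SE 0.09), but its span overlaps that of STUB1 by 1201 bases on the other strand. RAB40C, the substrate-binding part of a cullin ligase, had 41.1 and 43.2 CPM in WT and 19.7 and 25.5 CPM in KO (-0.90, SE 0.14). SPSB3, which also presents substrates to a cullin ligase, had 23.7 and 24.4 CPM in WT and 18.2 and 18.4 CPM in KO (-0.39, SE 0.15). The SPSB3 genotypes did not overlap, yet it was not called. FBXL16 had 3.26 and 3.46 CPM in WT and 3.11 and 2.54 CPM in KO (-0.25, SE 0.43), and the value ran from -0.41 without KO replicate 1 to -0.11 without KO replicate 2. PDIA2 had 0.782 and 2.00 CPM in WT and 1.04 and 1.13 CPM in KO (-0.42, SE 0.66), and leaving out WT replicate 2 gave 0.46, where leaving out WT replicate 1 gave -0.88. Neither direction can be held for these 2 genes at this depth.

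The genes for G protein signalling and secreted or neural factors were little used in this line. Of 7, 4 were tested and 0 were called in either direction by edgeR at an adjusted p under 0.05. ARHGDIG had the most counts, at 7.69 and 6.92 CPM in WT and 3.46 and 7.14 CPM in KO (-0.47, SE 0.33). One KO library lay between the WT libraries and the other below them, and the value was -0.03 without KO replicate 1 and -1.07 without KO replicate 2. METRN, a secreted neurotrophic factor, had 3.13 and 4.46 CPM in WT and 2.85 and 3.19 CPM in KO (-0.35, SE 0.41), with -0.56 without WT replicate 1 and -0.05 without WT replicate 2. BAIAP3, a regulator of vesicle traffic, had 1.70 and 1.82 CPM in WT and 0.777 and 2.35 CPM in KO (-0.19, SE 0.61). The BAIAP3 libraries of KO lay on both sides of WT, and its log2 fold change was 0.41 without KO replicate 1 and -1.17 without KO replicate 2. GNG13, a G protein γ subunit, was at -0.63 (SE 0.54). RGS11 had 2, 3, 2 and 0 counts, WFIKKN1 8, 9, 0 and 4 counts and IGFALS 1, 0, 0 and 0 counts, in the order WT replicates 1 and 2 and KO replicates 1 and 2, and these genes were not tested.

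Of the cilia and polycystin genes, 2 of 3 were tested, and both were called lower. IFT140, a core subunit of the IFT-A train that carries cargo back from the tip of the cilium, had 65.6 and 62.7 CPM in WT and 44.6 and 46.5 CPM in KO (-0.49, SE 0.10). PKD1, the polycystin of the more common form of dominant polycystic kidney disease, had 52.6 and 66.6 CPM in WT and 43.0 and 45.7 CPM in KO (-0.44, SE 0.11). PKD1 has pseudogenes of nearly the same sequence on chromosome 16, where 7 annotated entries carry such a name, so its counts are uncertain. CCDC78, a gene for centriole formation, had 12, 8, 7 and 3 counts in the same order and was not tested. C16orf13, for which no role is given, had 76.6 and 76.9 CPM in WT and 58.6 and 54.6 CPM in KO (-0.44, SE 0.09).

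Per kilobase of transcript the order of levels in WT was led by NME4, at 353 and 330 CPM per kb. SNRNP25 followed with 95.5 and 104 CPM per kb and C16orf13 with 96.1 and 96.5 CPM per kb, and these neighbours overlapped. LUC7L came next, at 78.9 and 84.5 CPM per kb, then STUB1, at 71.7 and 71.3 CPM per kb, without overlap between them. In KO, C16orf13 stood at 73.5 and 68.6 CPM per kb and SNRNP25 at 55.7 and 56.9 CPM per kb. LUC7L, at 59.2 and 54.6 CPM per kb in KO, overlapped SNRNP25 there.

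Along the chromosome the genes ran from SNRNP25 (chromosome 16, 53828 to 57669, GRCh38) to E4F1 (2223580 to 2235742). Split by order from the end into 3 groups of 14 tested genes, the medians were -0.71 from SNRNP25 to PIGQ, -0.65 from RAB40C to BAIAP3 and -0.66 from GNPTG to E4F1, with 11, 9 and 12 genes called lower. No step in the values was visible within the segment. The other genes up to E4F1, which were not in the list, had 29 tested genes with a median of -0.63, all 29 below 0. Of the 29, 24 were called lower, against 12.1% of all genes tested. These genes share the position that was chosen with this comparison known, and nothing is read from their number. The lowest of them were HBQ1, a globin-like gene with 43, 50, 17 and 11 counts (-2.00, SE 0.47), NOXO1, with 13, 23, 5 and 10 counts (-1.48, SE 0.67), and FAM195A, with 154, 250, 94 and 114 counts (-1.19, SE 0.19). NOXO1 was not called, and its value was -1.01 without KO replicate 1 and -2.11 without KO replicate 2. The highest were TSC2, the partner of TSC1 in holding back mTORC1 (-0.19, SE 0.07), NDUFB10, of respiratory complex I (-0.27, SE 0.06), and RPS2, a ribosomal protein (-0.35, SE 0.06). TSC2 was not called. Its value was -0.013 with the GC and length trend removed, where that of NDUFB10 was -0.17, and -0.11 with library size alone, -0.09 without WT replicate 1 and -0.30, then called, without WT replicate 2.

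TSC2 and NTHL1 start 101 bases apart and are read away from each other, yet their log2 fold changes were -0.19 and -1.17. The NTHL1 window printed above covers that start region. In counts not scaled for library totals, TSC2 had 1383 and 1714 in WT and 1733 and 1530 in KO. WT replicate 1 had the lowest total, at 7875722, so these raw counts do not give the direction. Of 8 such divergent pairs that start within 1000 bases of each other and had both genes tested, all 8 had both genes below 0. All 42 listed genes and all 29 other tested genes of the segment were below 0, so this count says nothing about pairs. HAGH and FAHD1, whose starts overlap, were at -0.47 and -0.62, and POLR3K and SNRNP25 at -0.92 and -0.83. Among the 48 genes, 30 overlap another gene of the table, 23 of them one on the other strand. Whether counting used strand is not stated, so reads of overlapping genes cannot be told apart. The 17 tested genes without such an overlap had a median of -0.57, and 11 of them were called lower.

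For comparison, the rest of the short arm of chromosome 16 had 234 tested genes with a median of -0.52, of which 144 were called lower and 2 higher. The long arm had 268 tested genes with a median of -0.27, 90 called lower and 3 higher. Chromosome 22 had 311 tested genes with a median of -0.42, 187 called lower and 2 higher. Genes of all other chromosomes, 12138 in number, had a median of 0.03, with 1108 (9.13%) called lower and 1134 higher. The difference between the 16p13.3 genes and these groups was not tested, because the same comparison chose them.

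Many of these proteins belong to complexes, families or pathways whose other members are encoded elsewhere. A list of 80 such partners was compiled from known biology and not by their values, and 75 were tested. By edgeR with Benjamini-Hochberg adjustment over all genes, 10 of the 75 were called lower and 6 of the 75 higher, shares near those over all genes given above, and the median log2 fold change was 0.01. The 69 partners on chromosomes other than 16 and 22 had 6 called lower and 6 higher, with a median of 0.04. The 6 partners on chromosomes 16 and 22 had 4 called lower and a median of -0.48. These 4 were WDR59 of GATOR2 (-0.31, adjusted p = 0.0247 by edgeR), NUBP1 (-0.54, adjusted p = 0.0302 by edgeR) and CIAPIN1 (-0.56, adjusted p = 0.00354 by edgeR) of iron-sulfur assembly, and CHTF8 of the CHTF18 clamp loader (-0.42, adjusted p = 0.00113 by edgeR), all on chromosome 16. The calls of WDR59 and NUBP1 were lost with DESeq2, with library size alone and without KO replicate 1, at -0.21 and -0.43. That of WDR59 was also lost without either WT replicate (-0.30 and -0.32), that of NUBP1 without WT replicate 2 (-0.37), and that of CIAPIN1 without KO replicate 2 (-0.42).

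Around AXIN1, the partners that passed the test were higher. APC, the other scaffold of the destruction complex, had 43.3 and 37.5 CPM in WT and 57.4 and 53.9 CPM in KO (0.47, SE 0.11, adjusted p = 0.00308 by edgeR). CSNK1A1, the kinase that primes β-catenin, rose from 150 and 182 CPM to 219 and 211 CPM (0.37, SE 0.08, adjusted p = 0.00094 by edgeR). TNKS, which marks AXIN1 for degradation, rose from 73.8 and 68.8 CPM to 94.5 and 86.3 CPM (0.35, SE 0.09, adjusted p = 0.00563 by edgeR). With the GC and length trend removed, APC was at 0.32, CSNK1A1 at 0.27 and TNKS at 0.24, and AXIN1 was at -0.87. CSNK1A1 was at 0.24 without WT replicate 1. The call of APC was lost without WT replicate 2 (0.36), and that of TNKS without WT replicate 2 (0.29) or KO replicate 1 (0.28). The other 6 partners of this complex were not called. CTNNB1, which encodes β-catenin itself, was at 0.00 (SE 0.07). AXIN2, the paralog of AXIN1 and a target of the Wnt pathway, was at -0.13 (SE 0.17).

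In the spliceosome, the partners called moved both ways. SNRNP70 of the U1 particle was at -0.43 (SE 0.07, adjusted p = 8.56e-05 by edgeR) and SNRNP35 of the U11 particle at -0.35 (SE 0.09, adjusted p = 0.00392 by edgeR). SNRPC of the U1 particle was at 0.30 (SE 0.07, adjusted p = 0.00156 by edgeR) and ZCRB1 of U11/U12 at 0.44 (SE 0.08, adjusted p = 0.000234 by edgeR). SNRNP35 was at -0.22 and not called without KO replicate 1. With the GC and length trend removed, SNRNP70 was at -0.25 and ZCRB1 at 0.26. ZMAT5, a partner of SNRNP25 on chromosome 22, was at -0.56 (SE 0.21) and not called.

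Among the partners of NPRL3 and WDR24, SEH1L of GATOR2 was at -0.41 (SE 0.11, adjusted p = 0.00676 by edgeR), and its call was lost without WT replicate 1 (-0.29) or KO replicate 1 (-0.36). The GATOR1 subunits NPRL2 and DEPDC5 were at -0.24 (SE 0.14) and -0.06 (SE 0.14), and neither was called. For TELO2, the partners TTI1 and TTI2 were at -0.03 (SE 0.09) and -0.18 (SE 0.32).

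None of the other 9 DNA glycosylases was called, and by edgeR 1 was lower and 1 higher at an unadjusted p under 0.05. They ran from NEIL1, at -0.60 (SE 0.23), to NEIL3, at 0.26 (SE 0.12), with a median of 0.03. Of the 5 other IFT-A subunits none was called, and 0 had an unadjusted p under 0.05 by edgeR. All 5 lay above 0, from 0.06 for IFT43 to 0.26 for WDR35, also under each other scaling, though only 4 did so without KO replicate 1 or without WT replicate 2. PKD2, the channel partner of PKD1, was at 0.25 (SE 0.11) and not called.

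Single partners elsewhere were also called. HSPA8, a chaperone to which STUB1 binds, was at -0.39 (SE 0.06, adjusted p = 3.28e-05 by edgeR), while HSP90AB1 was at 0.01 (SE 0.06). DPM2, which associates with the GPI enzyme of PIGQ, was at -0.46 (SE 0.10, adjusted p = 0.00159 by edgeR). GLO1, the first glyoxalase, was at 0.24 (SE 0.06, adjusted p = 0.0072 by edgeR) where HAGH, the second, was at -0.47. RHBDF2, the paralog of RHBDF1, was at -0.63 (SE 0.18, adjusted p = 0.0134 by edgeR). GLO1 was at 0.15 with the GC and length trend removed. Its call was lost without KO replicate 1 (0.20), and that of RHBDF2 with DESeq2 and without KO replicate 2 (-0.54) or WT replicate 2 (-0.61). The difference between a 16p13.3 gene and its partners was not tested.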

How the data were processed

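RNA-seq counts of 4 libraries were analysed, 2 per genotype, fewer per genotype than the methods give. The table the authors deposited holds counts as integers for each gene symbol, without normalization. The labels name a ribosomal RNA depletion kit for total RNA, and the submitters' processing notes name hg 19. The methods name STAR and RSEM with another build, and which pipeline and strand setting made the counts is not given in the sources used here. A table of the authors' own comparison, with their fold changes and p-values, was not used.

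Counts were fitted in R 4.3.3 with edgeR 4.0.16 (TMM, glmQLFit, glmQLFTest) on 13128 genes, each with a minimum of 1 CPM in 2 libraries, with Benjamini-Hochberg adjustment over all of them and a threshold of 0.05, after a test on simulated data. CPM used TMM-scaled library sizes. Genes were placed with GENCODE 44 on GRCh38, and per-kilobase values, GC content and length used the canonical transcript. The GC and length trend was removed by medians over 20 bins. Alternatives used DESeq2 1.42.0, limma 3.58.1, other scalings and filters, the replicate number as a block, and leaving out each library in turn. Tables and figures used Python 3.11.15, pandas 2.3.3 and matplotlib 3.10.9.

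The genes and lists were chosen with earlier results of these data known. Values per library are given for the 5 lowest and 5 highest log2 fold changes, the gene with the most counts in each role and further genes by role. Partners that were called and the 3 lowest and 3 highest other genes of the segment are named with their fold changes, some with values per library. LMF1 and the partners SEC13, LUC7L2 and FAM96B were not analysed here, and PIGC and PIGY were listed at 0. Genes chosen after their values were seen are FAHD1 and PIGQ, for their spread. Total counts per library limited precision, and p-values measure only the spread between these libraries.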

Additional observations from a re-analysis of the deposited data

How the results depend on the processing

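With 2 libraries per genotype, a single gene alone gives few degrees of freedom, and the edgeR fit shares information on spread across genes. Each SE was derived from that test, as the absolute log2 fold change over the square root of its F statistic. The SEs of genes with few counts reached 0.66. The count of 16p13.3 genes called lower was 30 to 33 over the other settings and 30 to 32 with 1 library left out, and none was called higher under any of them. Their median log2 fold change was -0.58 with library size alone, where the median of all genes moved to 0.09, and -0.49 with the GC and length trend removed. No calls were made with that trend removed, so the counts of calls given here leave that setting out. The median of the 16p13.3 genes ran from -0.74 to -0.57 with 1 library left out. That of the other genes of the segment was -0.55 and -0.44 under those settings, and -0.68 to -0.57 with 1 library left out. For the partners, the median was -0.013 with TMM without chromosomes 16 and 22, 0.091 with library size alone, 0.040 with limma-voom and 0.032 with upper quartile, and -0.0036 to 0.028 with 1 library left out. Partners called lower, 10 in the fit reported, ran from 6 (without KO replicate 1) to 9 with 1 library left out and from 7 to 11 over the other settings, and 12 were called higher with library size alone. With 1 library left out, BAIAP3 ran from -1.17 to 0.41 (without KO replicate 1) and PDIA2 from -0.88 to 0.46 (without WT replicate 2), so 41 of 42 genes were below 0 under each of these settings. TSC2 was called lower under 4 alternatives, at -0.19 to -0.30, and was as near to 0 as -0.09 without WT replicate 1 and -0.013 with the trend removed. The differences between replicates 1 and 2 in WT and KO correlated at 0.03 across genes. Whether equal replicate numbers mark a pairing is not stated in the labels. With the replicate block 32 of the 16p13.3 genes were called lower, and 11 partners were called lower and 7 higher. The causes of these shifts were not tested.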
